A study of Mus musculus with 6 samples.

Results

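CSF1, its receptor and 8 further cytokine receptor genes were described in microglia of mice with and without the cannabinoid receptor CB1. The 10 genes, *Csf1*, *Csf1r*, *Csf2ra*, *Csf2rb*, *Il10ra*, *Il10rb*, *Il6ra*, *Ifngr1*, *Tnfrsf1a* and *Tnfrsf1b*, were taken by symbol from the 19225 listed genes, and all 10 were listed. CD11b+ cells were isolated with magnetic beads from the brains, without cerebellum, of 3 Cnr1+/+ males (labelled wt/wt, strain C57BL6/J) and 3 Cnr1-/- males (labelled d/d, strain Cnr1 tm1Zim), 3 months old by the labels, though somewhat younger by the methods, and not exposed to stress. Each mouse gave 1 library of transcript 3′ ends. Cnr1-/- mice carry a neomycin cassette in the coding region of *Cnr1* in every cell of the body, and were backcrossed to C57BL/6J and bred mostly as littermates of the Cnr1+/+ mice, so the comparison is not of a loss within microglia alone.

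*Cnr1* itself had no reads in any of the 3 libraries labelled Cnr1+/+, but 1.41, 1.21 and 1.79 cpm (reads relative to library size, normalised with TMM) in the 3 labelled Cnr1-/-. The cassette lies in the coding region and the reads come from 3′ ends, so these values do not check the deletion. Whether that end was transcribed from the targeted allele or the labels of the 2 groups were exchanged cannot be told apart here. An exchange would turn every direction, so each is stated between label groups. The listed genes summed to 501085 cpm in the library with the least and 591247 cpm in that with the most, so the totals are not equal. The libraries corresponded to 7708812 to 10723826 reads, and a value of 0 allowed up to 0.280 to 0.389 cpm, which is 3 reads and covers counting error only. The 11 microglia markers, *P2ry12*, *Tmem119* and *Cx3cr1* among them, summed to 12182 to 14632 cpm in libraries labelled Cnr1+/+ and to 13364 to 14122 cpm in those labelled Cnr1-/-, so the labelled cell type was present in all 6. The 9 listed neutrophil markers summed to 3999 cpm in the library labelled Cnr1-/- replicate 2 and to 261 to 515 cpm in the other 5, and 5 monocyte markers to 105 cpm against 26.7 to 33.4 cpm. The 5 erythrocyte markers summed to 2330 cpm there and to 136 to 237 cpm elsewhere. Neutrophils and monocytes carry several of the receptors described here, so values without that library are given for those of the 10 genes whose difference it moved by over 1.5 times or turned, or whose nominal call it ended, and for partner genes whose difference it turned.

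Microglia depend on the receptor tyrosine kinase CSF1R for survival, and its ligands CSF1 and IL-34 are made largely by other brain cells. The GM-CSF, IL-10, IL-6 and interferon gamma receptors have no kinase of their own and signal through JAK kinases and STAT factors, each joining a subunit that binds the ligand to a partner that completes the signal. The TNF receptors TNFR1 and TNFR2 recruit TRAF adaptors and lead to NF-κB, and TNFR1 alone of the pair holds a death domain. CB1 signalling has been linked to how strongly microglia answer inflammatory cues, and the study asked whether the transcriptome of microglia differs without CB1.

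The receptors covered a wide range of levels, with *Csf1r* far above the rest. Since each transcript gives about 1 tag at its 3′ end, cpm are not divided by transcript length and can be set side by side between genes, although genes can still differ in how well their 3′ ends are captured. *Csf1r* had a mean of 3119 cpm over the 6 libraries (SD 249) and was the 10th most abundant of all listed genes. *Ifngr1* followed with 425 cpm (SD 62.7), then *Il6ra* with 286 cpm (SD 37.0) and *Il10ra* with 121 cpm (SD 18.4). *Csf1r* exceeded *Ifngr1*, *Ifngr1* exceeded *Il6ra* and *Il6ra* exceeded *Il10ra* with no overlap of their 6 values. The next genes were *Tnfrsf1b* (90.0 cpm), *Csf2ra* (87.1 cpm), *Tnfrsf1a* (84.0 cpm), *Il10rb* (68.7 cpm) and *Csf2rb* (67.1 cpm). Each overlapped with its neighbours among these over all libraries, and *Il10ra* overlapped with *Tnfrsf1b*. Within a library, *Il10ra* exceeded *Tnfrsf1b* and *Tnfrsf1a* exceeded *Il10rb* in all 6, and *Csf2ra* exceeded *Tnfrsf1a* in 5. *Tnfrsf1b* exceeded *Csf2ra*, and *Il10rb* exceeded *Csf2rb*, in 3 of the 6. *Csf1* came last with 6.19 cpm (SD 1.43), below every value of *Csf2rb*.

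**Figure D1:**
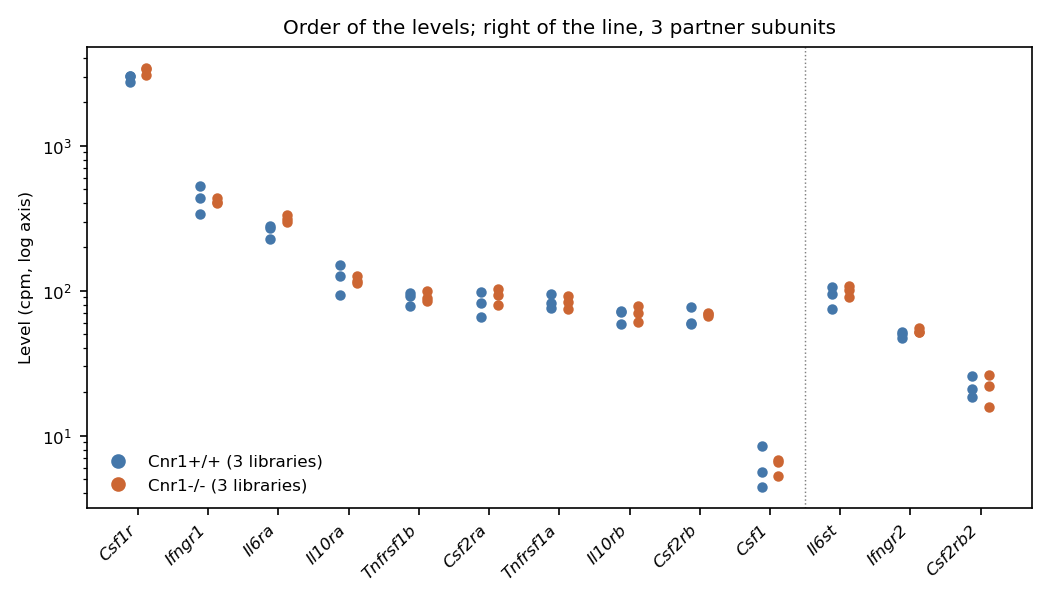
Levels in cpm on a log axis for the 10 genes in order of their mean, and for 3 partner subunits right of the dotted line, with 1 point per library (blue: labelled Cnr1+/+, orange: labelled Cnr1-/-). *Csf1r* stands between 2750 and 3441 cpm, 5 receptors crowd between 58.6 and 103 cpm, and *Csf1* lies below 8.5 cpm.

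Differences between the genotype labels were tested with limma on log2 (cpm + 0.1) for the 6659 genes that averaged 10 cpm or more. Of the 10 genes, 9 passed this minimum and *Csf1* did not. A nominal p under 0.05 was reached by 1 of the 9, *Il6ra*, against 6.02% of all genes tested (5.09% with the higher mean and 0.931% with the lower mean under the Cnr1-/- label). An adjusted p under 0.1 together with a 1.5-fold difference was reached by 0 of the 9, against 0.0901% of all genes (6 genes, but 0 after the medians of the libraries were made equal). The groups did not overlap for 2 of the 9 (22.2%), *Csf1r* and *Il6ra*, both higher in the libraries labelled Cnr1-/-. Of all genes tested, 8.85% had groups that did not overlap and were higher under that label. The adjusted p of the 9 lay between 0.792 and 0.991 with limma and Benjamini-Hochberg correction over all genes tested. The log2 fold change was above 0 for 6 of the 9 (66.7%), with a median of 0.05, while it was above 0 for 68.4% of all genes, with a median of 0.08. These directions depend on the scaling. After the medians of the libraries were made equal 4 of the 9 were above 0 and the median of all genes was 0.0084, with quantile normalisation 3 and −0.0014, and with rescaling without mitochondrial genes 3 and −0.015. This rescaling made the sums of all listed genes but the mitochondrial ones equal, so it also largely evened out the unequal totals of the libraries. The part of mitochondrial RNA alone was not tested. Nothing is known of whether the same-group libraries, each from 1 mouse, were processed together. A comparison of 3 libraries with 3 has 20 assignments, so a two-sided exact permutation test cannot give a p below 0.1.

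**Figure D2:**
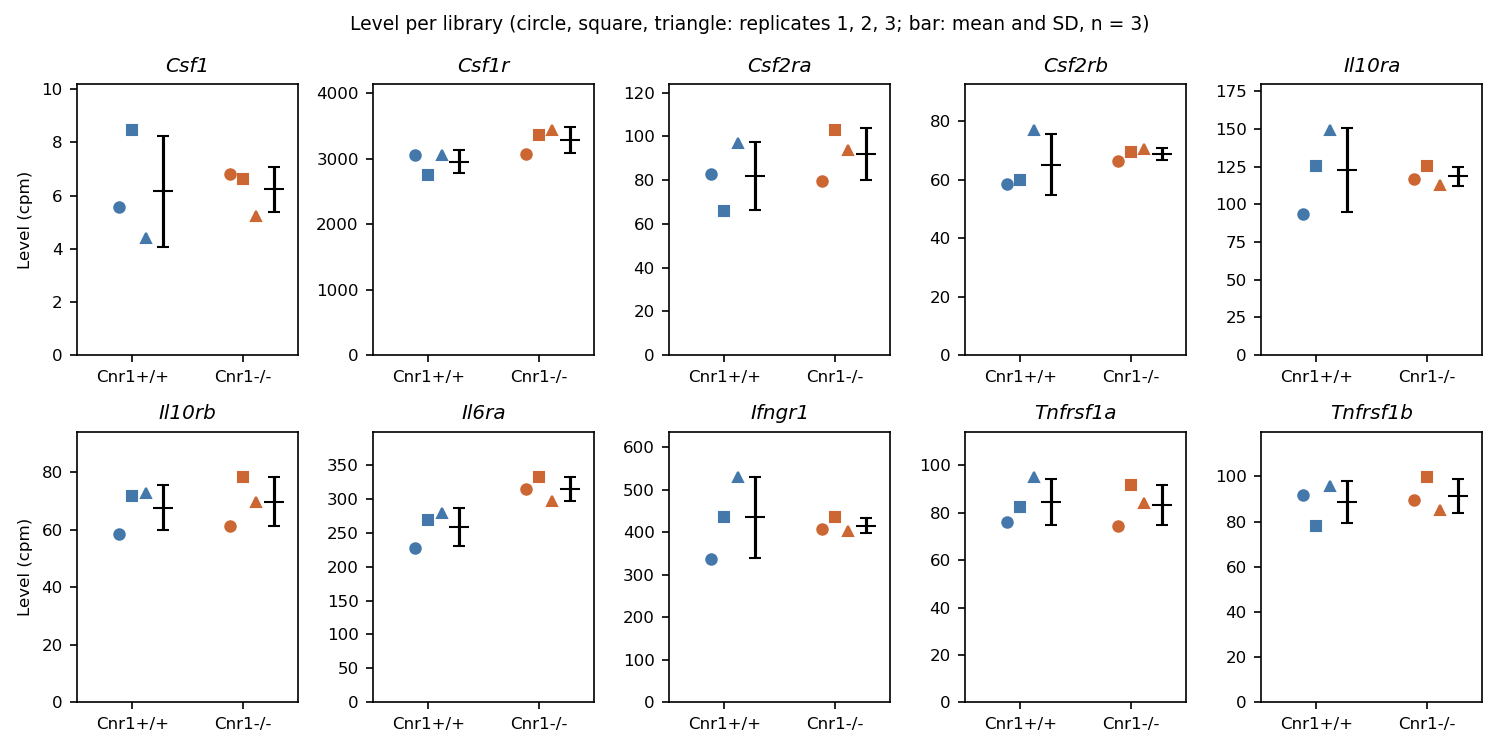
Levels in cpm of the 10 genes per library on axes that start at 0 (circle, square and triangle: replicates 1, 2 and 3, bar: mean and SD, n = 3 per group). All 3 values labelled Cnr1-/- lie above the 3 labelled Cnr1+/+ for *Csf1r* and *Il6ra*, and the groups overlap for the other 8 genes.

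*Csf1*, the ligand, lies on chromosome 3 of mm10 from 107741048 to 107760469 on the minus strand. It had 5.58, 8.48 and 4.42 cpm in libraries labelled Cnr1+/+ and 6.82, 6.62 and 5.25 cpm in those labelled Cnr1-/-. These values stand for 42 to 85 reads, and the 3 values of the second group all fell within the range of the first (two-sided exact permutation p = 1). The log2 difference was 0.06 on the log2 (cpm + 0.1) scale, and with no minimum level, limma gave a 95% interval of −0.66 to 0.78, which holds changes over 1.5-fold in either direction. As a plain difference of means, it was 0.011 without Cnr1-/- replicate 2, which holds the neutrophil markers, 0.31 without Cnr1+/+ replicate 2 and −0.15 without Cnr1+/+ replicate 3, and it ranged from −0.15 to 0.31 over the 6 libraries left out in turn. *Il34*, the other ligand of CSF1R, was at 0 in 1 library labelled Cnr1+/+ and in 2 labelled Cnr1-/-, and at most 0.653 cpm in the others.

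*Csf1r* encodes the receptor for CSF1 and IL-34 (chromosome 18, 61100598 to 61132149, plus strand). It had 3049, 2750 and 3052 cpm in libraries labelled Cnr1+/+ and 3062, 3358 and 3441 cpm in those labelled Cnr1-/-. The groups did not overlap, but the lowest value labelled Cnr1-/- exceeded the highest labelled Cnr1+/+ by little more than 10 cpm, and the exact permutation p was 0.1, the smallest possible. The log2 fold change was 0.16 with a 95% interval of −0.11 to 0.42 (limma adjusted p = 0.900). After the medians of the libraries were made equal, it was 0.08 (95% interval −0.14 to 0.30), with quantile normalisation 0.051 and with rescaling without mitochondrial genes 0.056. As a share of the microglia marker sum of the same library, *Csf1r* stood at 25.0%, 21.6% and 20.9% in the libraries labelled Cnr1+/+ and at 22.9%, 23.8% and 25.7% in those labelled Cnr1-/-, where the groups overlapped. In bulk samples, fewer cells of a type and less RNA per cell cannot be told apart. *Hmgxb3* overlaps *Csf1r* on the opposite strand and did not exceed 12.8 cpm.

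The tested genes whose log2 values, centred on their mean over the 6 libraries, lay closest to those of *Csf1r* included *Brd2*, a chromatin reader of acetylated histones, and the processed pseudogene *Gm6136*. Their root mean square differences from *Csf1r* were 0.018 and 0.023 on the log2 scale. Among the receptors, *Tnfrsf1b* was closest at 0.11 and *Il10ra* farthest at 0.24 on this scale, and *Tnfrsf1b* came at place 580 among all genes tested.

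*Csf2ra* and *Csf2rb* encode the ligand-binding subunit of the GM-CSF receptor and the beta subunit it shares with the IL-3 and IL-5 receptors. *Csf2ra* (chromosome 19, 61223957 to 61228429, minus strand) had 82.9, 66.1 and 97.2 cpm in libraries labelled Cnr1+/+ and 79.5, 103 and 93.9 cpm in those labelled Cnr1-/-. Its groups overlapped, with 1 value labelled Cnr1-/- above all labelled Cnr1+/+, and the log2 fold change was 0.18 (95% interval −0.13 to 0.48, exact permutation p = 0.5). That value came from the library with the neutrophil markers, without which the log2 fold change of *Csf2ra* was 0.091. It was 0.030 without Cnr1+/+ replicate 2, 0.31 without Cnr1+/+ replicate 3, 0.28 without Cnr1-/- replicate 1, and 0.10 after the medians were made equal. *Csf2rb* (chromosome 15, 78325752 to 78353847, plus strand) had 58.6, 59.9 and 77.2 cpm against 66.6, 69.6 and 70.6 cpm. All 3 values labelled Cnr1-/- fell between the middle and the highest value labelled Cnr1+/+, and the log2 fold change was 0.09 (95% interval −0.21 to 0.39, exact permutation p = 0.4). Without Cnr1+/+ replicate 1 it was 0.019, without Cnr1+/+ replicate 2 0.035 and without Cnr1+/+ replicate 3 0.22. After the medians were made equal it was 0.015, and it turned to −0.0066 with quantile normalisation and to −0.0088 with rescaling without mitochondrial genes. Within a library, *Csf2ra* was 1.10 to 1.42 times *Csf2rb* in those labelled Cnr1+/+ and 1.19 to 1.48 times in those labelled Cnr1-/-, so the ratio of the subunits overlapped as well.

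The mouse has a neighbouring copy of *Csf2rb*, *Csf2rb2*, which encodes a beta subunit particular to the IL-3 receptor (chromosome 15, 78282507 to 78305721, minus strand). The copies are nearly alike in parts of their coding sequence. Their longest shared run of bases, shown because reads from it could not be told apart between the genes, is 242 bases long, from base 2083 to 2324 of both coding sequences in the GENCODE vM21 transcripts, and reads 5′ to 3′, with no letter in capitals since no base differs:
shared run of Csf2rb and Csf2rb2: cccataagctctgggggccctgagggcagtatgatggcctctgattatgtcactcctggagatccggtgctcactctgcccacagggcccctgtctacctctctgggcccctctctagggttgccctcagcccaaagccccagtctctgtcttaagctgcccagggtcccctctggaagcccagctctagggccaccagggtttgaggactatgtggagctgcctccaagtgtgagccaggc
At the 3′ ends, from which the library kit takes its reads, the genes differ: of the 452 distinct words of 50 bases in the last 500 bases of the *Csf2rb* transcripts, 0 occurred in *Csf2rb2*, against 18.3% of the words over whole transcripts. *Csf2rb2* had 18.6, 20.8 and 26.0 cpm in libraries labelled Cnr1+/+ and 26.2, 21.9 and 15.9 cpm in those labelled Cnr1-/-, and its groups overlapped. In several libraries the derived reads of each gene were not whole numbers while their sum was, so some reads had been divided between the copies. With the reads of both genes summed, the log2 fold change was 0.06 (95% interval −0.22 to 0.35).

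*Il10ra* and *Il10rb* encode the subunits of the IL-10 receptor, by which microglia are held in check, and IL10RB is shared with receptors of related cytokines. *Il10ra* (chromosome 9, 45253837 to 45269149, minus strand) had 93.7, 125 and 150 cpm in libraries labelled Cnr1+/+ and 117, 126 and 113 cpm in those labelled Cnr1-/-. The range labelled Cnr1-/- lay inside that labelled Cnr1+/+, and the log2 fold change was −0.03 (95% interval −0.33 to 0.27, exact permutation p = 1). It was −0.069 without the library with the neutrophil markers, −0.21 without Cnr1+/+ replicate 1 and 0.13 without Cnr1+/+ replicate 3. With the medians made equal, with quantile normalisation and with rescaling it was −0.10, −0.12 and −0.13. *Il10rb* (chromosome 16, 91406164 to 91425834, plus strand) had 58.6, 71.6 and 72.7 cpm against 61.3, 78.4 and 69.6 cpm. Its groups overlapped, with a log2 fold change of 0.04 (95% interval −0.26 to 0.35, exact permutation p = 0.7), which turned to −0.03 after the medians of the libraries were made equal, to −0.044 without the library with the neutrophil markers and to −0.055 without Cnr1+/+ replicate 1. Its value was 0.13 without Cnr1-/- replicate 1, the highest with a library left out. *Il10ra* was 1.60 to 2.06 times *Il10rb* over the 6 libraries.

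*Il6ra*, the ligand-binding subunit of the IL-6 receptor, had the largest difference among the 9 genes tested with all libraries kept. Without Cnr1+/+ replicate 1, *Ifngr1* and *Il10ra* differed by more (−0.21 and −0.21 on the log2 scale, against 0.20). It lies on chromosome 3 from 89864059 to 89913196 on the minus strand. It had 227, 269 and 279 cpm in libraries labelled Cnr1+/+ (mean 258 ± 27.4, SD, n = 3) and 314, 332 and 297 cpm in those labelled Cnr1-/- (mean 314 ± 17.7, SD, n = 3). Every value labelled Cnr1-/- was above every value labelled Cnr1+/+, where the exact permutation test gave p = 0.1, the smallest possible, and limma a nominal p = 0.0231. The fold change was 1.22, or 0.29 on the log2 scale (standard error 0.12, 95% interval 0.04 to 0.53, limma adjusted p = 0.792). After adjustment over all genes tested it therefore did not pass the threshold of 0.1, and the adjusted p ranged from 0.430 to 0.999 over the alternatives.

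The difference in *Il6ra* was set against the other values of the same libraries. As a share of the microglia marker sum, *Il6ra* stood at 1.86%, 2.11% and 1.90% in the libraries labelled Cnr1+/+ and at 2.35%, 2.35% and 2.22% in those labelled Cnr1-/-, where the groups again did not overlap. After the medians of the libraries were made equal, the log2 fold change was 0.21 (95% interval 0.02 to 0.40), and with quantile normalisation it was 0.16 with an interval that held 0 (−0.03 to 0.36). The highest value, 332 cpm, came from the library with the neutrophil markers, and without that library the log2 fold change was 0.25 (95% interval −0.04 to 0.54). Without Cnr1+/+ replicate 1, which held the lowest value, it was 0.20 (95% interval −0.05 to 0.45), and without Cnr1-/- replicate 1 it was 0.29 (95% interval −0.01 to 0.59). The neutrophil markers summed to 515 and 261 cpm in the other 2 libraries labelled Cnr1-/- and to 264 to 491 cpm in the 3 labelled Cnr1+/+, and their part in the difference was not tested. The 5 astrocyte markers also differed in sum without overlap, at 146 to 153 cpm under the Cnr1+/+ label and 166 to 215 cpm under the Cnr1-/- label, where 2 of the 5 had the higher mean, *Slc1a3* and *Gfap*, and *Gfap* did not exceed 7.55 cpm. *Slc1a3* alone had 127 to 134 cpm and 150 to 191 cpm in these groups, so it made up most of each sum. The part of the astrocyte markers in the differences of *Il6ra* and *Csf1r* was not tested.

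*Il6st* encodes gp130, the signalling subunit that IL6RA shares with other cytokine receptors of the family. It had 74.7, 95.5 and 106 cpm in libraries labelled Cnr1+/+ and 101, 90.0 and 108 cpm in those labelled Cnr1-/-, and its groups overlapped. *Il6ra* was 3.04, 2.81 and 2.62 times *Il6st* in the first group and 3.11, 3.69 and 2.75 times in the second, so the ratio did not separate the labels (exact permutation p = 0.3). *Il6*, the ligand, lay between 1.20 and 3.68 cpm over the 6 libraries.

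*Ifngr1* encodes the ligand-binding chain of the interferon gamma receptor (chromosome 10, 19591949 to 19610229, plus strand). It had 338, 436 and 530 cpm in libraries labelled Cnr1+/+ and 408, 436 and 402 cpm in those labelled Cnr1-/-. The spread was wide in the first group (SD 96.1) and narrow in the second (SD 17.9), and the log2 fold change was −0.04 (95% interval −0.32 to 0.23, exact permutation p = 0.7). It was −0.077 without the library with the neutrophil markers, −0.21 without Cnr1+/+ replicate 1 and 0.11 without Cnr1+/+ replicate 3. Under the same 3 scalings it was −0.12, −0.11 and −0.14. Its partner chain *Ifngr2* had a mean of 51.3 cpm and overlapped between the groups. *Ifngr1* was 7.15, 8.44 and 10.5 times *Ifngr2* in the libraries labelled Cnr1+/+ and 7.84, 7.90 and 7.78 times in those labelled Cnr1-/-, so the second group fell within the range of the first.

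*Tnfrsf1a* and *Tnfrsf1b* encode TNFR1 and TNFR2. *Tnfrsf1a* (chromosome 6, 125349362 to 125362484, plus strand) had 76.1, 82.5 and 95.2 cpm in libraries labelled Cnr1+/+ and 74.4, 91.6 and 84.0 cpm in those labelled Cnr1-/-, with a log2 fold change of −0.02 (95% interval −0.31 to 0.26, exact permutation p = 0.8). *Tnfrsf1b* (chromosome 4, 145213463 to 145246870, minus strand) had 91.7, 78.0 and 95.9 cpm against 89.7, 99.8 and 85.0 cpm, with a log2 fold change of 0.05 (95% interval −0.23 to 0.33, exact permutation p = 0.7). The groups overlapped for both genes. Without the library with the neutrophil markers, the log2 fold change of *Tnfrsf1b* turned to −0.014 and that of *Tnfrsf1a* was −0.092. The latter was above 0 without Cnr1+/+ replicate 3 (0.066) and without Cnr1-/- replicate 1 (0.058). *Tnfrsf1b* also turned without Cnr1+/+ replicate 2 (−0.039). Under the 3 scalings, *Tnfrsf1a* was −0.097, −0.12 and −0.12, and *Tnfrsf1b* turned to −0.026, −0.038 and −0.049. *Tnfrsf1b* was the only 1 of the 10 genes on the chromosome of *Cnr1*, 111.3 Mb away from it. The receptors were near each other in level, with 0.946 to 1.21 times as much *Tnfrsf1b* as *Tnfrsf1a* in a library. *Tnf* lay between 0 and 3.34 cpm.

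**Figure D3:**
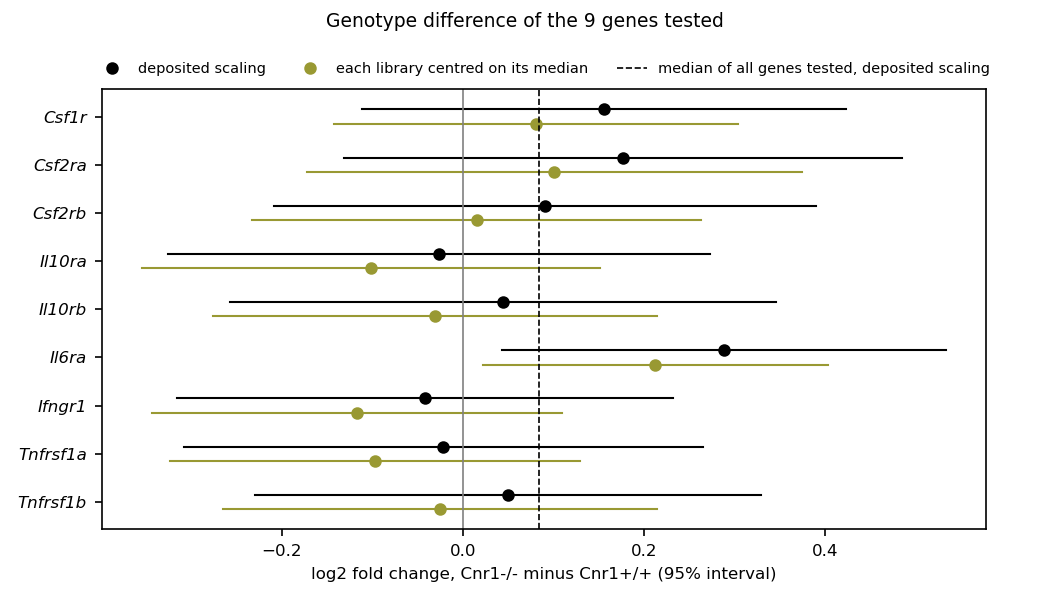
Log2 fold change (labelled Cnr1-/- minus labelled Cnr1+/+) of the 9 genes tested, with its 95% interval from limma, under the deposited scaling (black) and after the medians of the libraries were made equal (olive), and a dashed line at 0.08, the median of all genes tested. The interval excludes 0 for *Il6ra* under both scalings and holds 0 for the other 8 genes.

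Apart from *Il6ra*, the lowest bound among the 9 genes was −0.33 and the highest 0.48 on the log2 scale, so a 1.5-fold change lay outside the 95% interval of these 8 genes with all libraries kept. For *Csf2ra* the upper bound passed it with eBayes without trend (0.59), without Cnr1+/+ replicate 3 (0.63) and without Cnr1-/- replicate 1 (0.63). Among the libraries labelled Cnr1+/+, replicate 3 held the highest value for 9 of the 10 genes (52.1% of all genes tested), *Csf1* being the exception. Replicate 1 held the lowest for 6 of the 10 (51.8% of all genes tested). Among those labelled Cnr1-/-, replicate 2 held the highest value for 7 of the 10 (52.9%). Ratios within a library, which do not depend on the scaling between libraries, were taken for receptor subunits, for the TNF receptors and for *Csf1r* to *Csf1*. They overlapped between the groups for all 6 pairs compared, with two-sided exact permutation p between 0.3 and 0.9.

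**Figure D4:**
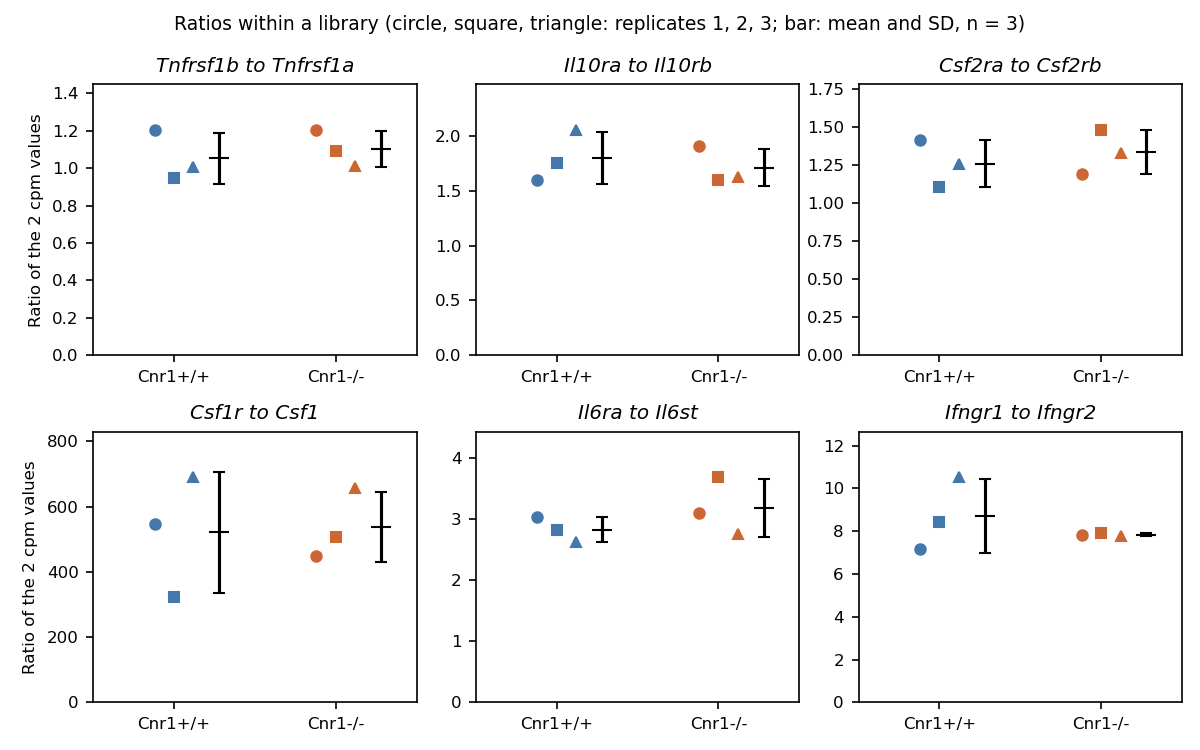
Ratio of the cpm of 2 genes in the same library for 6 pairs, on axes that start at 0 (circle, square and triangle: replicates 1, 2 and 3, bar: mean and SD, n = 3). The groups overlap in every panel, and the ratio of *Ifngr1* to *Ifngr2* spans 7.15 to 10.5 in the libraries labelled Cnr1+/+ and 7.78 to 7.90 in those labelled Cnr1-/-.

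The partners of these receptors were taken list by list, and each count of genes with a nominal p under 0.05 stands against the 6.02% of all genes tested. In lists of 6 to 21 tested genes, counts of 0 or 1 are near that share and say nothing particular of a list. With the medians of the libraries made equal, the medians of the 3 lists with a positive centred median were 0.028 for the receptor subunits, 0.043 for the proteins downstream of CSF1R and 0.034 for the TNF receptor complex. Of 8 ligands, 3 were listed, *Il34*, *Il6* and *Tnf*, and 0 reached the minimum mean. Of 15 further receptor subunits, 12 were tested and 0 had a nominal p under 0.05 (all genes 6.02%), with a median log2 fold change of 0.10. This median ranged from 0.046 without Cnr1+/+ replicate 1 to 0.17 without Cnr1+/+ replicate 3. The most abundant were *Tgfbr1* (358 cpm), a TGF-beta receptor kinase, *Il4ra* (138 cpm), the IL-4 receptor chain, and *Ifnar2* (130 cpm), a chain of the type I interferon receptor. *Ifnar2* had 115, 119 and 132 cpm in libraries labelled Cnr1+/+ and 136, 141 and 136 cpm in those labelled Cnr1-/-, which did not overlap, but its log2 fold change of 0.18 had a 95% interval of −0.08 to 0.43. *Csf3r*, the G-CSF receptor that neutrophils carry in quantity and which was named after its values were seen, had 35.4 cpm in the library rich in neutrophil markers and 28.1 to 41.1 cpm in the other 5.

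Of the 19 JAK kinases, STAT factors and their inhibitors, 14 were tested and 1 had a nominal p under 0.05 (all genes 6.02%), with a median log2 fold change of 0.07. The count was 0 without Cnr1+/+ replicate 1 and without Cnr1-/- replicate 3, and 2 without Cnr1+/+ replicate 3. The median was −0.0049 with the medians of the libraries made equal, −0.027 with quantile normalisation and 0.0013 without Cnr1+/+ replicate 1. The gene was *Pias1*, an inhibitor of STAT factors, with 29.1, 34.9 and 31.9 cpm in libraries labelled Cnr1+/+ and 41.2, 41.6 and 42.6 cpm in those labelled Cnr1-/-. Its groups did not overlap, and the log2 fold change was 0.39 (95% interval 0.06 to 0.72, limma adjusted p = 0.792). The most abundant members were *Ptpn1*, a phosphatase that acts on JAK kinases (207 cpm, log2 fold change 0.06), *Jak1* (191 cpm, log2 fold change 0.14) and *Stat3* (114 cpm, log2 fold change 0.19), and 0 of the 3 had a limma nominal p under 0.05. The difference of *Ptpn1* was −0.050 without Cnr1+/+ replicate 1 and 0.15 without Cnr1+/+ replicate 3. *Stat3*, the main factor downstream of the IL-6 and IL-10 receptors, had 115, 95.5 and 110 cpm against 116, 132 and 116 cpm, which did not overlap, while the 95% interval of its log2 fold change was −0.08 to 0.45. The difference of *Stat3* ranged from 0.11 without Cnr1+/+ replicate 2 to 0.24 without Cnr1+/+ replicate 1.

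Of 24 signalling proteins downstream of CSF1R, 21 were tested and 1 had a nominal p under 0.05 (all genes 6.02%), with a median log2 fold change of 0.12. The count was 0 without Cnr1-/- replicate 1 or 3. It was 2 without Cnr1+/+ replicate 1, with 1 gene higher and 1 lower under the Cnr1-/- label. Without Cnr1+/+ replicate 2 it was 2 and without Cnr1+/+ replicate 3 it was 3, all higher under that label. *Inpp5d* encodes SHIP1, a lipid phosphatase that opposes PI3 kinase. It had 175, 184 and 201 cpm in libraries labelled Cnr1+/+ and 221, 213 and 235 cpm in those labelled Cnr1-/-. Its groups did not overlap, and the log2 fold change was 0.26 (95% interval 0.01 to 0.50, limma adjusted p = 0.809). The adaptor *Tyrobp* (374 cpm) and the kinase *Lyn* (252 cpm) were the most abundant beside *Inpp5d*, and their log2 fold changes were 0.01 and −0.00073. Without the library with the neutrophil markers these were −0.067 and −0.063, and without Cnr1+/+ replicate 3 they were 0.13 and 0.074. After the medians of the libraries were made equal, 0 of the 21 had a nominal p under 0.05.

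Of 20 members of the TNF receptor complex, 14 were tested. Their median log2 fold change was 0.11, and 0.038 to 0.11 with each library left out in turn. Of the 14, 0 had a nominal p under 0.05 (all genes 6.02%). With the medians made equal or with quantile normalisation, 1 was lower in libraries labelled Cnr1-/- at that threshold, and 1 was higher without Cnr1+/+ replicate 1 or 3. The most abundant were *Tab2*, an adaptor of the kinase TAK1 (165 cpm, log2 fold change 0.01), *Adam17*, the protease that releases TNF and its receptors from the membrane (96.1 cpm, log2 fold change −0.15), and *Cflar*, an inhibitor of caspase-8 (64.2 cpm, log2 fold change 0.10). The difference of *Tab2* was −0.087 without the library with the neutrophil markers and 0.066 without Cnr1-/- replicate 1. That of *Adam17* ranged from −0.24 without Cnr1+/+ replicate 1 to −0.10 without Cnr1+/+ replicate 3. Of the 14 targets of interferon gamma, 8 were tested, and of the 10 STAT3 targets, 6 were tested. In both lists 0 had a nominal p under 0.05 (all genes 6.02%), and both medians were 0.07. With the medians of the libraries made equal they were −0.0034 for the first list and −0.0020 for the second, and with quantile normalisation −0.0029 and −0.013. The median of the first ranged from −0.016 without Cnr1-/- replicate 3 to 0.13 without Cnr1-/- replicate 1, and was 0.00064 without Cnr1+/+ replicate 1. That of the second ranged from 0.022 without Cnr1+/+ replicate 2 to 0.14 without Cnr1+/+ replicate 3. In the first list, 1 gene reached a nominal p under 0.05, with the higher mean under the Cnr1-/- label, without Cnr1+/+ replicate 1, Cnr1+/+ replicate 3 or Cnr1-/- replicate 1. Their most abundant members were *B2m* (1074 cpm), *Psmb8* (51.7 cpm) and *Irf1* (46.5 cpm) in the first list, and *Il4ra* (in both this list and the subunits), *Junb* (55.5 cpm) and *Sbno2* (46.8 cpm) in the second. *Irf1*, a transcription factor that interferon gamma induces, had a log2 fold change of 0.31 (95% interval −0.03 to 0.66). The difference of *Irf1* ranged from 0.15 without Cnr1+/+ replicate 2 to 0.43 without Cnr1-/- replicate 1.

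**Figure D5:**
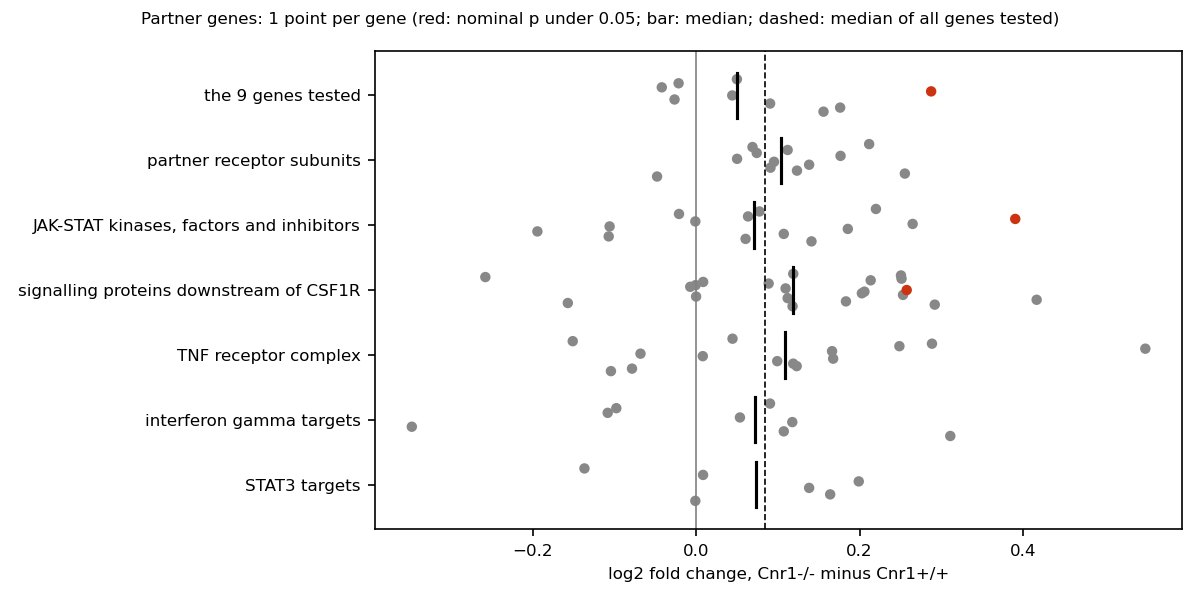
Log2 fold change (labelled Cnr1-/- minus labelled Cnr1+/+) of each gene tested in 6 lists of partner genes and of the 9 receptor genes, with 1 point per gene (red: limma nominal p under 0.05), a bar at the median of each list and a dashed line at 0.08, the median of all genes tested. The medians of the 7 rows lie between 0.05 and 0.12, and the red points are *Il6ra*, *Pias1* and *Inpp5d*.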

How the data were processed

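The data were 6 libraries of CD11b+ cell RNA, each from another mouse, in groups of 3 by their genotype labels. The authors aligned trimmed reads to mm10 with STAR 2.6.1d, divided shared reads between genes by expectation-maximisation and deposited CPM after TMM normalisation. Under 95% of the values are whole multiples of the value of 1 read (84.8% to 86.7%, within 0.02 reads), so tests for counts were not used. Reads per library were derived from that value, and their number limits the precision of low genes.

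Log2 (value + 0.1) was fitted with limma 3.58.1 in R 4.3.3 (lmFit, eBayes with trend) for the 6659 genes averaging 10 cpm or more, without covariates, and p-values were adjusted over all of them by Benjamini-Hochberg. Calls used a nominal p under 0.05, or an adjusted p under 0.1 together with a 1.5-fold difference. The steps were tested on simulated data whose changes were larger than the difference of any of the 10 genes. Detection of differences as small as theirs was not tested. Single values and ratios were compared with two-sided exact permutation tests. Gene ends are those deposited less 1 base, which matched GENCODE vM21 for all 10 genes. Named partners are those with a nominal p under 0.05 and the 3 most abundant of each list, and for *Csf1r* the 3 closest genes, of which 1 is not reported here. *Csf3r*, *Hmgxb3*, *Il6st*, *Ifngr2*, *Slc1a3*, *Gfap* and the ligands were named outside this rule. The 10 genes and the lists were chosen with earlier results of these data known. Alternatives covered pseudocount, filter, scaling, shrinkage, block, summed *Csf2rb* copies and each library left out. Scaling to the microglia marker sum, and differences of means without each library for *Csf1* and the named partners, were added after seeing the data. Figures were drawn with matplotlib 3.10.9.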

Additional observations from a re-analysis of the deposited data

How the results depend on the processing

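Of the 9 receptor genes, 1 reached a nominal p under 0.05, and 0 did so with quantile normalisation, with rescaling without mitochondrial genes and with eBayes without trend; leaving out each library in turn gave 0 to 1. That gene was always *Il6ra*, whose log2 fold change was 0.19 (95% interval −0.01 to 0.39) with rescaling without mitochondrial genes and 0.29 (95% interval −0.06 to 0.64) without trend. With each library left out, its log2 fold change ranged from 0.20 to 0.35. The count past adjusted p 0.1 and 1.5-fold was 0 throughout. Other values changed sign in 20 cases, with a smallest nominal p of 0.370. On median centring, *Il10rb* and *Tnfrsf1b* were −0.031 and −0.026, on quantile normalisation *Csf2rb*, *Il10rb* and *Tnfrsf1b* were −0.0066, −0.056 and −0.038, on rescaling without mitochondrial genes −0.0088, −0.055 and −0.049, and on scaling to microglia markers *Il10rb* and *Tnfrsf1b* were −0.0072 and −0.0016. With libraries left out, *Csf2ra* ranged from 0.030 to 0.31, *Csf2rb* from 0.019 to 0.22, *Il10ra* ranged from −0.21 to 0.13, *Il10rb* from −0.055 to 0.13, *Ifngr1* from −0.21 to 0.11, *Tnfrsf1a* from −0.094 to 0.066 and *Tnfrsf1b* from −0.039 to 0.11. Over all genes, 84.5% of those with a nominal p under 0.05 were higher in the libraries labelled Cnr1-/-, but 52.5% with centring, 45.3% with quantile normalisation and 40.3% with rescaling, and their number was 401 as deposited, 993 without a filter, 263 at a minimum mean of 20, 251 without Cnr1-/- replicate 2 and 600 without Cnr1+/+ replicate 3. The 6 of all genes past adjusted p 0.1 and 1.5-fold were 0 with centring, quantile normalisation, rescaling, scaling to microglia markers and without trend, and 1 to 24 with libraries left out. Libraries with the same replicate number showed no common deviation (correlations −0.06, −0.03 and −0.03), but whether they were processed together is not known. With the replicate block the count was 1 of the 9 receptor genes and 421 of all genes. The causes were not tested. The values of *Csf1* rest on 42 to 85 reads.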
